A study of Mus musculus with 9 samples.

Results

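The structural genes of the epidermal differentiation complex were followed in the tongues of mice with an induced Bmi1 transgene and in the tongues of their controls. Members were taken by symbol: every gene beginning with Sprr or Lce and a digit, and the single genes Flg2, Hrnr, Rptn, Lor, Ivl, Tchh, Tchhl1, Crnn, Crct1, Lelp1, Prr9 and Kprp. This gave 45 members among 20512 gene symbols. Flg, which encodes filaggrin, was also named by that rule and is not analysed here. The transgene group held 4 libraries from mice that carried K14-rtTA together with TREFLBmi-1, an inducible Bmi1 transgene. The control group held 5 libraries from mice with K14-rtTA alone. K14-rtTA is a doxycycline-dependent activator under the keratin 14 promoter, which is active in basal epithelial cells, so the transgene is induced in epithelium while the RNA came from tongue tissue. All mice were about 6 weeks old, came from a cross of C57/Bl6 with FVB/NJ, and received doxycycline at 2 mg/mL in drinking water for 1 week. Whether each library is its own animal is not stated, and a p-value here speaks only of the spread among the libraries.

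The epidermal differentiation complex is a cluster of genes, on mouse chromosome 3, for the proteins that harden the outermost cells of stratified epithelium. Loricrin and involucrin form much of the scaffold of the cornified envelope, small proline-rich (SPRR) and late cornified envelope (LCE) proteins are joined into it by transglutaminases, and the S100-fused proteins bind keratin filaments and calcium. The dorsal tongue of the mouse is covered by keratinized filiform papillae with softer epithelium between them, and repetin, trichohyalin and loricrin are well known from that surface.

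The sequences just upstream of 6 members are shown because these genes mark the contrasts described below. Sprr2b and Prr9 had the lowest adjusted p-values in limma, though neither stayed under 0.05 with every library left out in turn. Lce1b and Lce1c stand for a row of nearby LCE genes that were lower, a row that Kprp interrupts. Lce1m is a relative of them outside that row, and Rptn had nearly equal group means. Each window is the 250 bases before the RefSeq start of the gene in GRCm38.p6. Sprr2b lies at chr3:92316455-92316704 on the plus strand, Prr9 at chr3:92123948-92124197 on the minus strand, Lce1b at chr3:92656927-92657176 on the minus strand, Lce1c at chr3:92678997-92679246 on the plus strand, Lce1m at chr3:93019062-93019311 on the minus strand, and Rptn at chr3:93393449-93393698 on the plus strand. Sequences run 5′ to 3′ on the strand of the gene. Capitals mark the AP-1 letters TGANTCA and the TATA letters TATAAA.
Sprr2b: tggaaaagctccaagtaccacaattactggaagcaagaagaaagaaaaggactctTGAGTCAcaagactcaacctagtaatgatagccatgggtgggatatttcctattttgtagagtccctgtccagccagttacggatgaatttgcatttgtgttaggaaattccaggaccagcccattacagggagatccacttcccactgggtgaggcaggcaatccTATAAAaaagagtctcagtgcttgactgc
Prr9: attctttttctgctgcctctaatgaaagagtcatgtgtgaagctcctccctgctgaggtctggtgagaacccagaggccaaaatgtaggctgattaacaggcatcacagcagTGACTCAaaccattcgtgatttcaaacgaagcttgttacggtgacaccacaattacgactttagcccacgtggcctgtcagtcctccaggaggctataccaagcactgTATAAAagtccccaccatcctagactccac
Lce1b: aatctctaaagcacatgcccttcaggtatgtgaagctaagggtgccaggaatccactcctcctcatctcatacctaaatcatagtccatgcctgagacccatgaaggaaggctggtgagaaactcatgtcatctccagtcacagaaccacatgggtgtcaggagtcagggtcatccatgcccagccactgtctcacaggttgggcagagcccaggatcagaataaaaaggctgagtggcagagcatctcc
Lce1c: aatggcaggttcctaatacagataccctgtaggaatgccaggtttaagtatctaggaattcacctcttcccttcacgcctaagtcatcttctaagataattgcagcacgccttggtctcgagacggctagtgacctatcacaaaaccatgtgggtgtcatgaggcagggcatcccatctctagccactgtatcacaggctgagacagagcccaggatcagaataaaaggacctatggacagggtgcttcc
Lce1m: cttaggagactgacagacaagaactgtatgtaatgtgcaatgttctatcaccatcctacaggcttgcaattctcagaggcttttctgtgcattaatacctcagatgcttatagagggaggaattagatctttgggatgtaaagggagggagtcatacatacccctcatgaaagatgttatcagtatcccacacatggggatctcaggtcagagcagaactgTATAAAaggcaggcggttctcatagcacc
Rptn: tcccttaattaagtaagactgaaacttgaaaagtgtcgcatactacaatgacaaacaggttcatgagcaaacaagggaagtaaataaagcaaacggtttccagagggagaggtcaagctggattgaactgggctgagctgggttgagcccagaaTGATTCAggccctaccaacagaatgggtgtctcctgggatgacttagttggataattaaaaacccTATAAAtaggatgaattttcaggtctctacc

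Upstream windows were at hand for 34 of the 37 members that were tested; Lce1f, Crct1 and Kprp had none. On either strand the AP-1 letters stood in 5 of 5 windows of the tested Sprr2 genes, in 3 of 5 of the S100-fused genes, in 0 of 11 of the Lce1 genes other than Lce1m, and in 0 of 6 of the Lce3 genes. They stood in 6.75% of all 32851 windows of the same length. The TATA letters stood in 5 of 5 Sprr2 windows and in 1 of 11 of the same Lce1 windows, against 12.4% of all windows. The KLF and SP letters CACCC stood in 15 of 34 members (44.1%) and in 52% of all windows. The C/EBP letters TTNNGCAA stood in 3 of 34 (8.82%) and in 9.56% of all, and the GRHL letters AACCNGTT in 1 of 34 (2.94%) and in 1.79% of all. Matches to different motifs may share bases, and a match is only a match of letters. The upstream windows of the 11 Lce1 genes had a median identity of 64.3% over 55 pairs, from 48.2% to 85.6%, whereas Lce1m had a median identity of 49.5% with them. The S100-fused windows had a median identity of 48% over 10 pairs.

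Values are the log2 normalized expression that the authors deposited, and every difference is transgene minus control on that scale. Of the 45 members, 37 had a mean of at least 3 and were tested among 14490 genes. Bmi1 was at 12.49, 12.05, 14.87 and 11.94 in transgene replicates 1 to 4, and between 10.21 and 10.74 in the controls, so every library matched its label. The deposited values hold no variation between 3 sets of libraries, called strata, beyond the group means: stratum 1 holds transgene replicate 1 and control replicate 1, stratum 2 holds transgene replicates 2, 3 and 4 and control replicates 2 and 3, and control replicates 4 and 5 make up stratum 3. The labels do not name these strata. Genes were therefore tested with limma with terms for the strata, called the stratum-term fit, and a gene was called at a Benjamini-Hochberg adjusted p under 0.05 over all tested genes. A fit with the group alone, called the group-only fit, counts 7 residual degrees of freedom where 5 exist and is given beside it because it is too lenient. Bmi1 itself was higher by 2.44 (SE 0.595, adjusted p 0.0672 in limma) and was not called in the stratum-term fit.

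Across the complex, 31 of 37 tested members were on the lower side in transgene tongues and 6 on the higher side (Sprr2f, Sprr1a, Lce1m and Tchhl1 of these only with transgene replicate 3 included), with a median difference of -0.26 against 0.0028 over all tested genes; 49.0% of all tested genes were on the lower side. The shift was uneven. Most Lce1 genes, Sprr2b and Prr9 had the largest differences, the Lce3 genes smaller ones, and the S100-fused genes were spread around 0. In the stratum-term fit, 2 members fell, Prr9 and Sprr2b, where 1.15% of all tested genes fell. No member rose in that fit of limma, where 0.511% of all tested genes rose. At an unadjusted p under 0.05, 23 members were lower and 0 higher, where 11.8% of all tested genes were lower and 11.2% higher. The group-only fit called 23 members lower and 0 higher (0 at an unadjusted p under 0.05), where 12.7% of all tested genes were called lower and 11.7% higher. The other 21 of those members had adjusted p-values from 0.0557 to 0.198 in the stratum-term fit. The 4 transgene values were under each of the 5 control values for 17 of 37 tested members, where 11.6% of all tested genes did so, and over each of them for 0, where 9.76% did. With no variation between strata in the values, the spread within groups is narrowed. Separation of the groups, here and below, is therefore lenient in the way of the group-only fit. Members also vary together, so these counts are not counts of separate signs. The Lce1 genes other than Lce1m, whose transcripts share sequence, make up 12 of the 23 members in either fit and 8 of the 17. In RNA from bulk tissue, fewer cells of a type and less RNA per cell cannot be told apart.

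**Figure D1:**
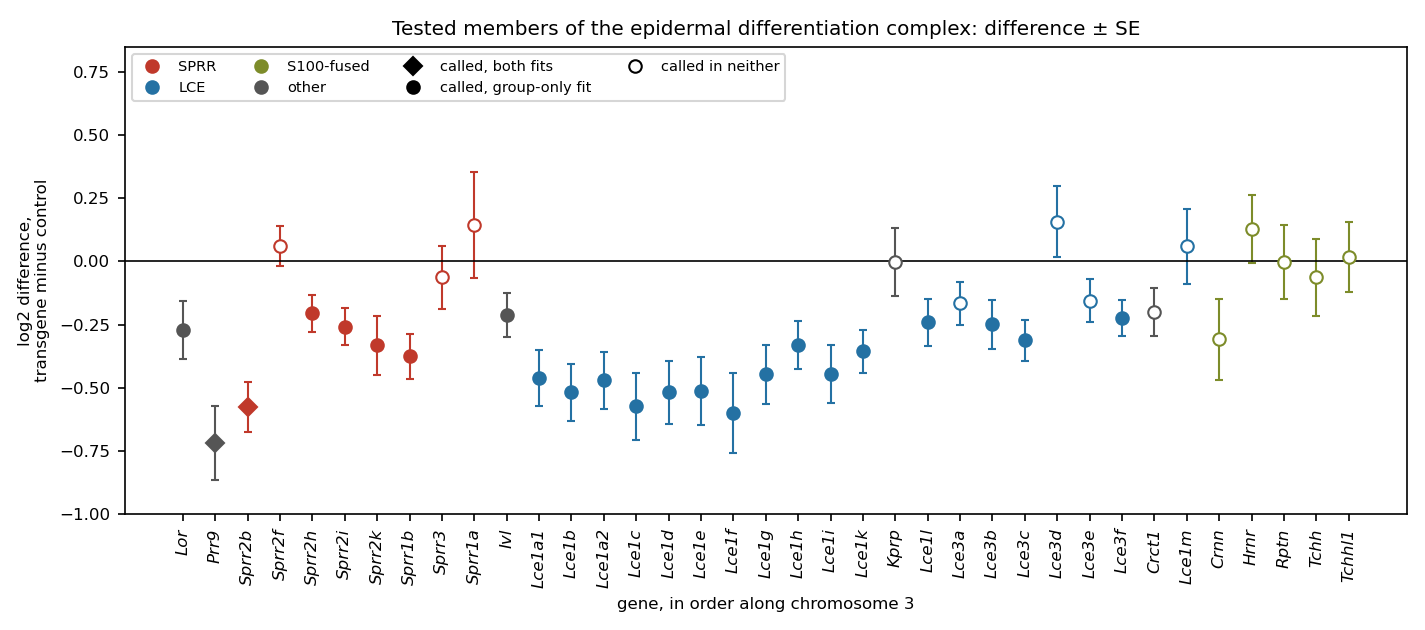
Log2 difference, transgene minus control (vertical axis), for the 37 tested members in their order along chromosome 3, with bars for the SE of the stratum-term fit (4 transgene and 5 control libraries). Diamonds mark Prr9 and Sprr2b, called in both fits; the row of Lce1 genes from Lce1a1 to Lce1k lies between -0.60 and -0.33, and the S100-fused genes Hrnr, Rptn, Tchh and Tchhl1 lie near 0.

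The table listed 13 SPRR genes, whose products are short proline-rich bridges in the cornified envelope, and 8 were tested. Their median difference was -0.23, with 6 lower and 2 higher. Sprr2b stood at 5.91, 6.07, 5.63 and 6.02 in transgene replicates 1 to 4, and at 6.48, 6.38, 6.58, 6.47 and 6.49 in control replicates 1 to 5. Every transgene library was below every control, with replicate 3 the lowest. Sprr2b fell by 0.58 (SE 0.10, adjusted p 0.0418), to 0.671 times the control level. The call was lost without control replicate 2 (adjusted p 0.142 in limma), 3 (0.174), 4 (0.0896) or 5 (0.0896) or without transgene replicate 2 (0.124), with differences from -0.64 to -0.48 over all libraries left out in turn. In the runs that lost it, 1, 0, 9, 9 and 0 of all tested genes were called lower, against 166 with all libraries. The AP-1 and TATA letters of Sprr2b are shared by the other tested Sprr2 genes, of which Sprr2k (-0.33, SE 0.12), Sprr2i (-0.26, SE 0.073) and Sprr2h (-0.21, SE 0.074) had adjusted p-values of 0.135, 0.089 and 0.144. Sprr2k stood at 7.28, 7.34, 6.89 and 7.44 in transgene replicates 1 to 4, against 7.53, 7.52, 7.67, 7.57 and 7.57 in control replicates 1 to 5. Sprr2i stood at 6.79, 6.79, 6.59 and 6.86 in transgene replicates 1 to 4, against 6.98, 7.07, 6.99, 7.09 and 6.94 in control replicates 1 to 5. Sprr2h stood at 6.44, 6.32, 6.58 and 6.56 in transgene replicates 1 to 4, against 6.71, 6.61, 6.71, 6.60 and 6.76 in control replicates 1 to 5. The transgene libraries were below all controls for each of these 3 genes, with replicate 3 lowest for Sprr2k and Sprr2i and replicate 2 lowest for Sprr2h. Sprr2f, at a low level, had a mean of 3.49 ± 0.16 (SD, n = 4) in transgene libraries and 3.43 ± 0.064 (SD, n = 5) in controls, with overlapping groups.

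The pair of Sprr1 genes, which encode cornifins and are expressed in squamous epithelia, are described apart because their values differ. Sprr1b stood at 11.61, 11.56, 11.58 and 11.95 in transgene replicates 1 to 4, and at 12.12, 12.03, 12.005, 12.01 and 12.09 in control replicates 1 to 5. All transgene libraries were lower, replicate 4 by the least, and the difference was -0.38 (SE 0.09, adjusted p 0.0651). Sprr1a, known as a stress-induced member, stood at 12.59, 12.31, 13.40 and 12.64 in transgene replicates 1 to 4, and between 12.45 and 12.74 in controls. Transgene replicate 3 was above every control for Sprr1a and replicate 2 below every control, and the difference was 0.15 (SE 0.21, adjusted p 0.709), or -0.076 without transgene replicate 3. The within-library difference Sprr1b minus Sprr1a averaged -1.06 ± 0.52 (SD, n = 4) in transgene libraries and -0.54 ± 0.077 (SD, n = 5) in controls. The 2 genes were set side by side with their values known, so this is a description. Without transgene replicate 3 the difference between the groups was -0.27 in place of -0.52.

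Sprr3, the SPRR gene with the highest log2 value and a component of oral and oesophageal envelopes, stood at 13.93, 13.86, 14.24 and 14.28 in transgene replicates 1 to 4, and at 14.29, 13.90, 14.23, 14.15 and 14.13 in control replicates 1 to 5. The groups overlapped, and the difference was -0.064 (SE 0.13, adjusted p 0.795). The SPRR genes below the floor were Sprr2d (means 1.68 in transgene libraries and 1.67 in controls), Sprr2e (0.77 and 0.74) and Sprr4 (0.32 and 0.33). Sprr2a1 and Sprr2a2 were listed at 0 in every library. Of the 50-base stretches of their longest transcripts, 96.3% for Sprr2a1 and 96.5% for Sprr2a2 also stand in transcripts of other genes, so nothing is said of their expression.

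The LCE genes, which encode small cysteine- and glycine-rich proteins of the late envelope, numbered 20, and 19 were tested. Their median difference was -0.36, with 17 lower and 2 higher. All 12 tested Lce1 genes other than Lce1m were lower, by 0.24 for Lce1l to 0.60 for Lce1f, and each had an unadjusted p under 0.05 in the stratum-term fit (11.8% of all tested genes were lower at that level). None of the 12 passed the adjustment over all genes in limma, with adjusted p-values from 0.0557 for Lce1b to 0.164 for Lce1l. The group-only fit called all 12, where it called 12.7% of all tested genes lower. Lce1f stood at 11.27, 11.27, 10.89 and 11.75 in transgene replicates 1 to 4, and at 11.92, 11.98, 11.79, 11.95 and 11.84 in control replicates 1 to 5. The highest transgene library, replicate 4, lay just under the lowest control. The difference was -0.60 (SE 0.16, adjusted p 0.0799), or 0.659 times the control level. Lce1c stood at 11.04, 10.998, 10.80 and 11.47 in transgene replicates 1 to 4, against 11.69, 11.71, 11.55, 11.72 and 11.58 in control replicates 1 to 5 (-0.57, SE 0.13, adjusted p 0.0596). Lce1b stood at 11.46, 11.40, 11.37 and 11.88 in transgene replicates 1 to 4, against 12.11, 12.09, 11.94, 12.08 and 12.01 in control replicates 1 to 5 (-0.52, SE 0.11, adjusted p 0.0557). In both genes transgene replicate 4 was the highest and replicate 3 the lowest of the transgene libraries; the genes lie on opposite strands with Lce1a2 between them.

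The other 9 genes of the row repeated much of this pattern. Lce1a1 stood at 11.44, 11.40, 11.36 and 11.85 in transgene replicates 1 to 4, and at 12.05, 12.02, 11.85, 12.01 and 11.95 in control replicates 1 to 5. For Lce1a2 the transgene libraries 1 to 4 held 11.52, 11.48, 11.38 and 11.92, against 12.10, 12.10, 11.94, 12.08 and 12.004 in controls 1 to 5. The transgene values of Lce1d, in the same order, were 11.61, 11.53, 11.37 and 11.996, against control values of 12.16, 12.22, 12.05, 12.21 and 12.08. In these 3 genes no transgene library reached a control; replicate 4 came nearest, for Lce1a1 by less than the rounding shown. Lce1e stood at 10.63, 10.57, 10.30 and 10.995 in transgene replicates 1 to 4, and at 11.13, 11.25, 11.04, 11.21 and 11.07 in control replicates 1 to 5. For Lce1g the transgene libraries 1 to 4 held 10.99, 10.92, 10.89 and 11.41, against 11.56, 11.58, 11.36, 11.54 and 11.46 in controls 1 to 5. The transgene values of Lce1h, in the same order, were 10.79, 10.69, 10.78 and 11.12, against control values of 11.23, 11.22, 11.08, 11.24 and 11.11. Transgene replicate 4 was below the controls for Lce1e but inside their range for Lce1g and Lce1h. Lce1i stood at 11.40, 11.31, 11.27 and 11.79 in transgene replicates 1 to 4, and at 11.93, 11.96, 11.77, 11.91 and 11.86 in control replicates 1 to 5. For Lce1k the transgene libraries 1 to 4 held 10.84, 10.68, 10.82 and 11.07, against 11.22, 11.26, 11.14, 11.25 and 11.16 in controls 1 to 5. The transgene values of Lce1l, in the same order, were 10.64, 10.53, 10.81 and 10.92, against control values of 11.05, 10.95, 10.89, 11.05 and 10.88. For Lce1i and Lce1l replicate 4 again lay within the controls, and Lce1k had no overlap. Their differences were -0.52 for Lce1d, -0.51 for Lce1e, -0.47 for Lce1a2, -0.46 for Lce1a1, -0.45 for Lce1g and Lce1i, -0.36 for Lce1k, -0.33 for Lce1h and -0.24 for Lce1l. The SE of these differences ran from 0.084 for Lce1k to 0.14 for Lce1e. The groups did not overlap for 8 of the 12 genes, where all transgene libraries were below all controls for 11.6% of all tested genes. For Lce1g, Lce1h, Lce1i and Lce1l transgene replicate 4 reached into the controls. Differences in the middle of the row, from Lce1b to Lce1f, were between -0.60 and -0.47, and those toward Lce1l were smaller. Kprp, which is not an LCE gene, lies between Lce1k and Lce1l and differed by -0.0016 (SE 0.14, adjusted p 0.996 in limma). Lce1m, which lies apart from the row beyond the Lce3 genes, had a mean of 5.78 ± 0.32 (SD, n = 4) in transgene libraries and 5.72 ± 0.086 (SD, n = 5) in controls. Its values were 5.74, 5.55, 6.24 and 5.57 in transgene replicates 1 to 4 and 5.62 to 5.80 in controls, so the groups overlapped (0.059, SE 0.15, adjusted p 0.84). Without transgene replicate 3 the difference was -0.095, and without control replicate 2 it was -0.00083. No test of the Lce1 row against Lce1m was made.

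The 12 Lce1 transcripts share letters. Between 9.12% (Lce1k) and 27.1% (Lce1i) of the 50-base stretches of their longest transcripts also stand in transcripts of other genes, mostly of other Lce1 genes. Reads were 50 bases long and how reads with several matches were handled was not given in the sources used here, so single Lce1 genes are less certain than the row. Lce1m shares none of its 50-base stretches.

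The 6 Lce3 genes, which in human skin are known for induction after barrier damage, had a median difference of -0.19. Lce3c stood at 11.97, 11.76, 12.14 and 12.07 in transgene replicates 1 to 4, and at 12.31, 12.31, 12.27, 12.30 and 12.30 in control replicates 1 to 5. All transgene libraries were lower than all controls, and the difference was -0.31 (SE 0.081, adjusted p 0.0738). Lce3f stood at 11.95, 11.76, 12.09 and 11.996 in transgene replicates 1 to 4, and at 12.17, 12.17, 12.17, 12.18 and 12.16 in control replicates 1 to 5 (-0.22, SE 0.071, adjusted p 0.113). Lce3b stood at 11.93, 11.71, 12.21 and 12.03 in transgene replicates 1 to 4, and at 12.26, 12.22, 12.17, 12.23 and 12.20 in control replicates 1 to 5 (-0.25, SE 0.098, adjusted p 0.17). Lce3f showed no overlap between groups, while for Lce3b transgene replicate 3 lay within the controls. These 3 were the Lce3 genes called by the group-only fit, where it called 12.7% of all tested genes lower. Lce3a, the LCE gene with the highest log2 value, stood at 12.17, 12.02, 12.42 and 12.27 in transgene replicates 1 to 4, and at 12.44, 12.32, 12.41, 12.41 and 12.36 in control replicates 1 to 5. Transgene replicate 3 lay among the controls and the other 3 transgene libraries below them (-0.17, SE 0.084, adjusted p 0.268). Lce3e differed by -0.16 (adjusted p 0.304). Lce3d, at 9.17, 8.90, 9.58 and 9.05 in transgene replicates 1 to 4 and 8.91 to 9.12 in controls, differed by 0.16 (SE 0.14, adjusted p 0.531), or 0.021 without transgene replicate 3. Lce3 transcripts share between 12.1% (Lce3b) and 49.3% (Lce3d) of their 50-base stretches with transcripts of other genes, so their single values are uncertain too. Lce6a stood below the floor, between 1.79 and 1.80 in transgene libraries and 1.80 and 1.87 in controls.

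**Figure D2:**
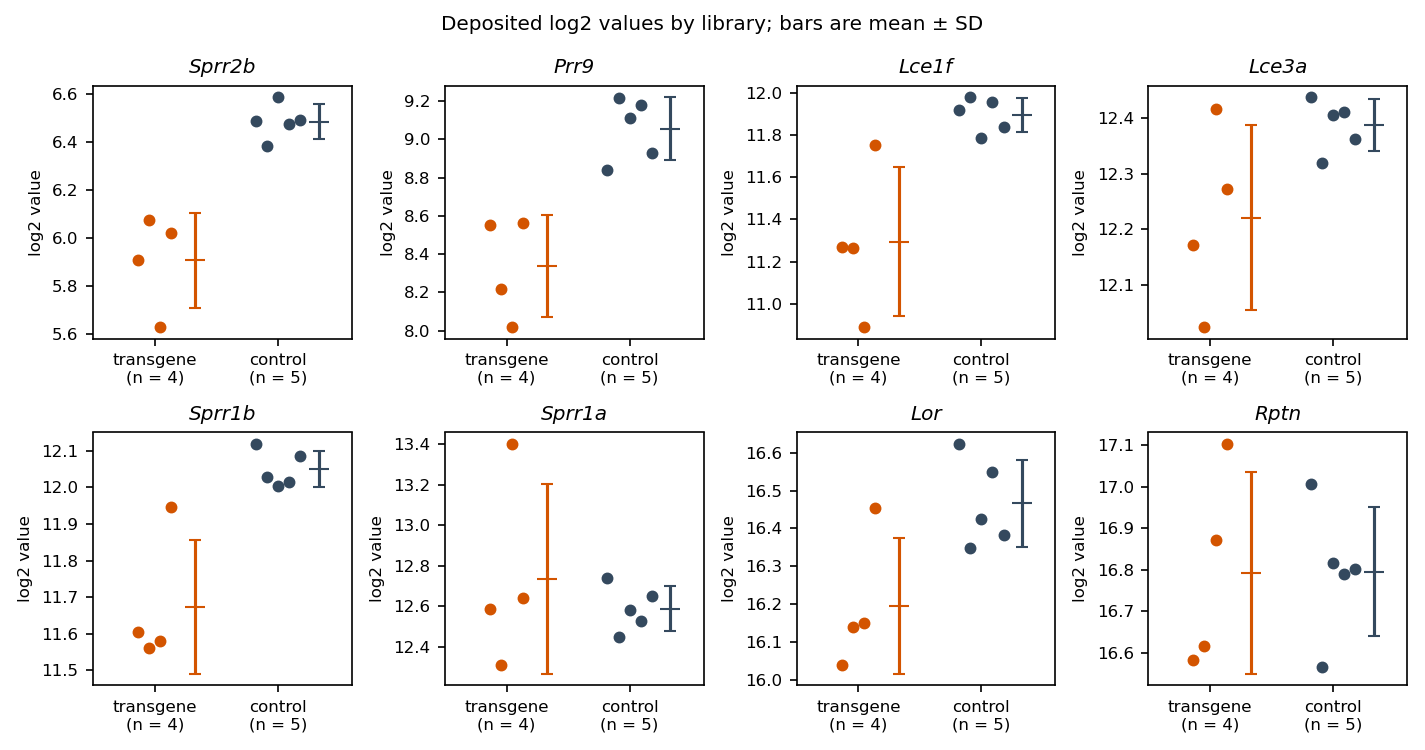
Deposited log2 values (vertical axes, not starting at 0) of 8 members in 4 transgene and 5 control libraries, each point 1 library, with mean ± SD beside the points. Sprr2b, Prr9, Lce1f and Sprr1b show no overlap between groups, whereas Lce3a, Sprr1a, Lor and Rptn overlap.

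The S100-fused proteins, large repeat-rich proteins that carry a calcium-binding domain, showed no common shift. Their 5 tested genes had a median difference of -0.0026 (0.027 under quantile normalization), with 3 lower and 2 higher. In limma 0 were called in either fit, and 0 had an unadjusted p under 0.05 in the stratum-term fit. Crnn had an unadjusted p of 0.0383 in the group-only fit. Of all tested genes, 1.15% were called lower and 0.511% higher in the stratum-term fit, and 12.7% and 11.7% in the group-only fit. At an unadjusted p under 0.05 in the stratum-term fit, 11.8% were lower and 11.2% higher. With 5 genes, counts of 0 beside such shares decide nothing. Rptn, which encodes repetin, stood at 16.58, 16.62, 16.87 and 17.10 in transgene replicates 1 to 4, and at 17.01, 16.56, 16.82, 16.79 and 16.80 in control replicates 1 to 5. The highest and the lowest library thus came from different groups with wide overlap (-0.0026, SE 0.15, adjusted p 0.995). Crnn, which encodes cornulin, a protein of squamous mucosa, had the largest difference of these genes. It stood at 12.45, 12.49, 12.36 and 13.10 in transgene replicates 1 to 4, and at 13.06, 12.72, 12.95, 12.91 and 12.91 in control replicates 1 to 5. Replicates 1, 2 and 3 of the transgene group were below every control and replicate 4 above every control (-0.31, SE 0.16, adjusted p 0.277). Without transgene replicate 4 the difference was -0.47 (adjusted p 0.0252). Tchh, which encodes trichohyalin, a crosslinked keratin-binding protein of papillae and hair root sheath, differed by -0.064 (SE 0.15), Hrnr by 0.13 (SE 0.13) and Tchhl1 by 0.018 (SE 0.14), with adjusted p-values from 0.596 to 0.95. Flg2, the filaggrin-like family member 2 gene, was below the floor at -0.57 to -0.54 in all 9 libraries.

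Of the single-copy envelope genes, Prr9, which encodes a small proline-rich protein, had the largest difference of all members. Prr9 stood at 8.55, 8.22, 8.02 and 8.56 in transgene replicates 1 to 4, and at 8.84, 9.21, 9.11, 9.18 and 8.93 in control replicates 1 to 5. No transgene library reached the lowest control, and replicates 2 and 3 were lowest. Prr9 fell by 0.72 (SE 0.15, adjusted p 0.0473), to 0.608 times the control level. The call was lost without control replicate 2 (adjusted p 0.193 in limma), 3 (0.18), 4 (0.0977) or 5 (0.0977) or without transgene replicate 2 (0.138) or 3 (0.0674), with differences from -0.90 to -0.61 over all libraries left out in turn. In the runs that lost it, 1, 0, 9, 9, 0 and 22 of all tested genes were called lower, against 166 with all libraries. Lor, which encodes loricrin, stood at 16.04, 16.14, 16.15 and 16.45 in transgene replicates 1 to 4, and at 16.62, 16.35, 16.43, 16.55 and 16.38 in control replicates 1 to 5. Only transgene replicate 4 lay within the range of the controls (-0.27, SE 0.12, adjusted p 0.198). Ivl, which encodes involucrin, stood at 6.30, 6.34, 5.99 and 6.33 in transgene replicates 1 to 4, and at 6.39, 6.53, 6.44, 6.40 and 6.51 in control replicates 1 to 5. All of its transgene libraries were lower, by a narrow margin for 3 of them (-0.21, SE 0.088, adjusted p 0.187). Crct1 differed by -0.20 (SE 0.095, adjusted p 0.241), and Kprp, the keratinocyte proline-rich protein gene, by -0.0016 (SE 0.14, adjusted p 0.996). Lelp1 was listed at 0 in every library.

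Within libraries, Rptn minus Lor averaged 0.60 ± 0.11 (SD, n = 4) in transgene tongues and 0.33 ± 0.094 (SD, n = 5) in controls. The transgene libraries lay above all controls, from 0.48 to 0.72 against 0.22 to 0.42. Sprr3, Lce3a, Rptn and Lor have the highest mean log2 value of their subfamilies. Every other pair of these genes overlapped between groups. Their group differences ran from -0.16 (Lce3a minus Rptn) to 0.21 (Sprr3 minus Lor). Rptn and Lor are 2 members with high log2 values, set side by side with earlier results known, and no test was made.

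Per length, loricrin was the most abundant member. Taking off log2 of the longest transcript in kilobases, control means on the log2 scale per kilobase were 15.64 for Lor, 14.74 for Rptn, 14.18 for Crct1, 13.85 for Sprr3 and 13.25 for Lce3a. The Lce1 row lay between 11.54 (Lce1l) and 12.71 (Lce1d), a narrow range beside that of the tested Sprr2 genes, from 4.15 (Sprr2f) to 8.22 (Sprr2k). Sprr2b was at 6.83, Prr9 at 8.81 and Ivl at 5.51 on this scale. The members called in the stratum-term fit were thus not the abundant ones.

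The transgene libraries differed among themselves. The median SD over tested members was 0.22 in transgene libraries and 0.077 in controls, and the control spread is that left in the deposited values. Transgene replicate 4 was the highest transgene library for 12 of 12 genes of the Lce1 row and for 5 of 5 S100-fused genes. Its median deviation from the control mean was -0.13 over the Lce1 row and 0.31 over the S100-fused genes. Transgene replicate 3, the library with the highest Bmi1 value, was the lowest transgene library for 9 of the 12 genes of the Lce1 row (median deviation -0.64) and the highest for 6 of 6 Lce3 genes (median deviation 0.0093). Transgene replicate 2 was the lowest for 6 of 6 Lce3 genes (median deviation -0.40). The Lce1 and Lce3 classes thus ordered the transgene libraries differently. Over all members replicate 4 had the median deviation nearest to the control mean (-0.12), but not over the Lce3 or the S100-fused genes. Leaving out transgene replicate 4 brought 15 members under the threshold of limma, where 1.22% of all tested genes were called lower. Among them were 11 of the 12 Lce1 genes (Lce1c at -0.71, adjusted p 0.00517 in limma). In that run 0 members were called higher, where 0.352% of all tested genes were. Replicate 4 was also the highest transgene library for 13 of 13 tested hard keratin genes and 23 of 30 other cornification genes; it was below every control for 12 of the hard keratin genes and within their range for Krt84. Replicate 3 was the lowest for 9 of 13 hard keratin genes. It lay more than 0.5 above the other transgene libraries for 4 of 17 suprabasal keratinocyte genes (Krt6b, Krt17, Krt1 and Mal), for Klk7 and for the salivary gene Aqp5, and more than 0.5 below them for 1 of 10 muscle genes (Myh2). Of these, Mal was at 10.57, 10.35, 11.84 and 10.62 in transgene replicates 1 to 4, against 10.09 to 10.51 in controls. The part of these genes in the member results was not tested.

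**Figure D3:**
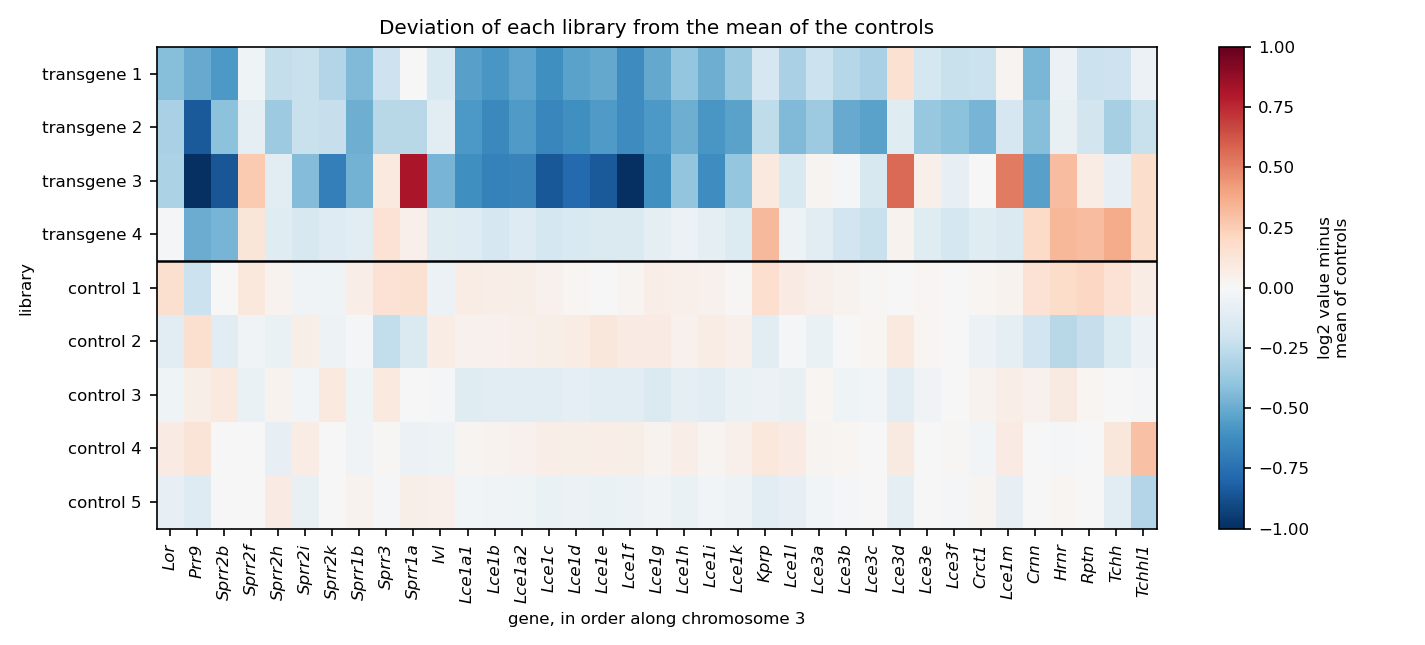
Deviation of the log2 value of each tested member (columns, in order along chromosome 3) from the mean of the 5 controls, for each library (rows, 4 transgene libraries above 5 controls). The Lce1 row is low in transgene replicates 1, 2 and 3 and near the controls in replicate 4, and Sprr1a, Lce3d and Lce1m are high in transgene replicate 3.

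The strata with both groups were compared. Stratum 1 has 1 library a group and stratum 2 has 3 transgene libraries and 2 controls. Of the tested members, 27 of 37 were lower in both strata, where 25.9% of all tested genes were. The Lce1 row had a median difference of -0.57 in stratum 1 and -0.42 in stratum 2, and Sprr2b had -0.58 and -0.57. The S100-fused genes had a median of -0.36 in stratum 1 and 0.081 in stratum 2, and 4 of the 5 took opposite signs. Rptn was at -0.42 and 0.17, and Hrnr at -0.24 and 0.28. Lor was at -0.58 and -0.14 and Prr9 at -0.28 and -0.90. The keratinocyte lists also had lower medians in stratum 1 than in stratum 2: -0.37 and 0.14 for suprabasal genes, -0.25 and 0.19 for basal genes, -0.30 and 0.007 for other cornification genes, and -0.22 and 0.054 for the regulators. Their part in the member results was not tested. The median over all tested genes was -0.0066 in stratum 1 and 0.0074 in stratum 2.

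**Figure D4:**
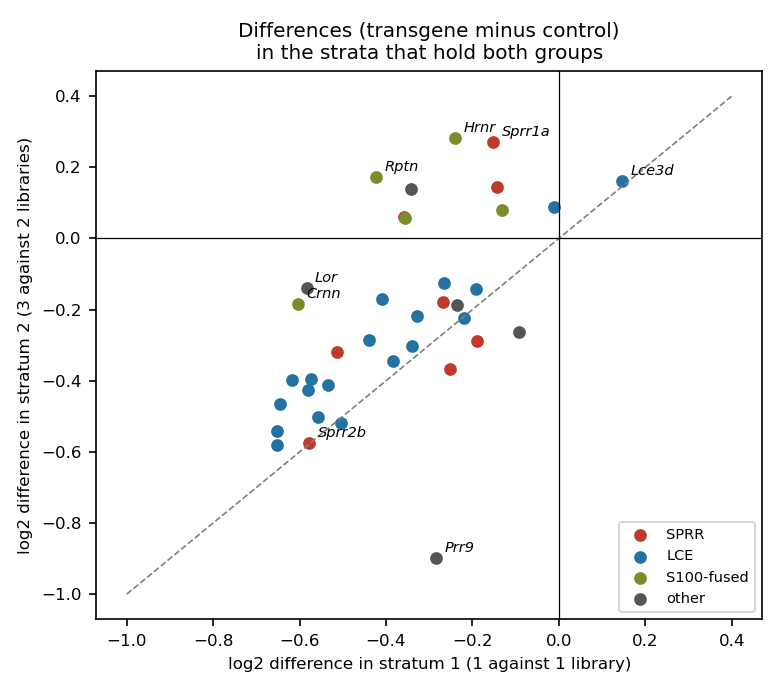
Log2 difference, transgene minus control, of each tested member in stratum 1 (horizontal axis, 1 library a group) and in stratum 2 (vertical axis, 3 transgene libraries and 2 controls), coloured by subfamily, with equality dashed. Most LCE points lie in the lower left near the line, while 4 of the 5 S100-fused points lie above 0 in stratum 2 and below 0 in stratum 1.

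Members are mostly short genes, with a median longest transcript of 724 bases against 3392 over tested genes. With the trend of values with length taken out, the median difference over members was -0.14, and 0 were called by limma (where 0.0484% of all tested genes were called lower). The Lce1 row kept the largest group shift, with a median of -0.32 against -0.47 as deposited, and Prr9 (-0.61, adjusted p 0.111) and Sprr2b (-0.43, adjusted p 0.127) stayed the members farthest below 0 together with Lce1f (-0.45). The Lce3 median was -0.022, against -0.19 as deposited. Lce3a was then at 0.010 and Sprr3 at 0.041, each with the sign turned.

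**Figure D5:**
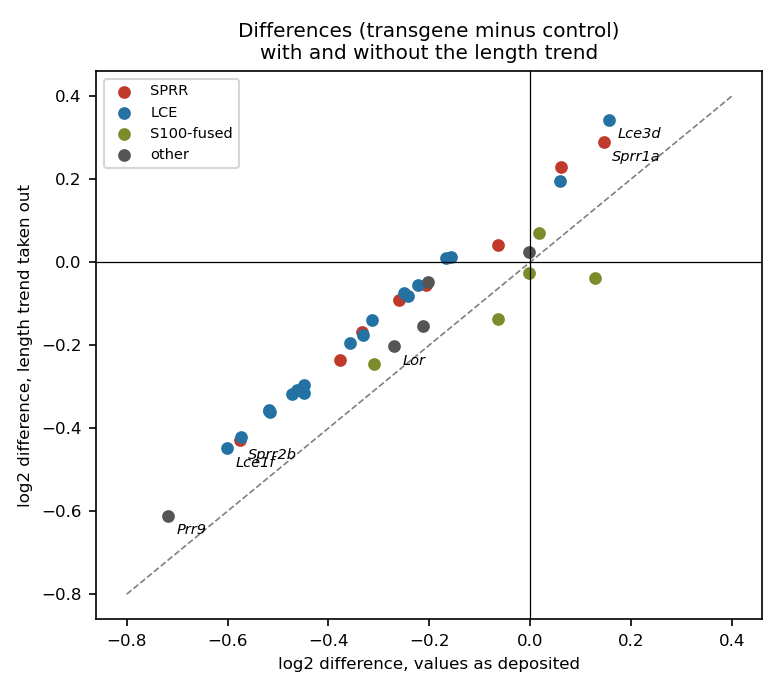
Log2 difference, transgene minus control, of the 37 tested members as deposited (horizontal axis) and with the length trend taken out (vertical axis), coloured by subfamily, with equality dashed. The short SPRR and LCE genes lie above the line, and Prr9, Lce1f and Sprr2b remain lowest at -0.61, -0.45 and -0.43.

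The authors' deposited table of 981 genes lists 14 members, all lower: 10 Lce1 genes, Lce3c, Sprr2i, Sprr2k and Prr9. It lists 552 genes as lower, 3.16% of the genes not at 0 in every library, and 429 as higher (2.46%), of which 0 are members. In the authors' deposited table Prr9 has a log2 fold change of -0.71 (SE 0.13, adjusted p 2.54e-05), Lce1c has -0.51 (SE 0.12, adjusted p 0.00162) and Sprr2k has -0.47 (SE 0.14, adjusted p 0.0173). The mean normalized signal in the authors' deposited table runs from 137 for Sprr2i to 4795 for Lce3c among these members. Sprr2b, Sprr1b and Lce1f are not in the authors' deposited table.

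Other genes of cornification had mostly small differences. Of 30 tested, 2 fell in the stratum-term fit and 5 in the group-only fit, with 0 higher in either (0 at an unadjusted p under 0.05 in the stratum-term fit), and the median difference was -0.089. Of all tested genes, 1.15% were called lower and 0.511% higher in the stratum-term fit, and 12.7% and 11.7% in the group-only fit. At an unadjusted p under 0.05 in the stratum-term fit, 11.2% were higher. Without control replicate 2 or 3, or transgene replicate 2, 0 genes of the cornification list and 0 of the regulators were called in limma. Of all tested genes, 1, 0 and 0 were then called lower, against 166 with all libraries. Csta, which encodes the envelope protease inhibitor cystatin A, fell to 10.21, 10.20, 10.17 and 10.32 in transgene replicates 1 to 4, against 10.64 to 10.71 in controls (-0.45, SE 0.051, adjusted p 0.0221, and 0.126, 0.111 and 0.104 without those libraries in turn). Krtdap, a keratinocyte differentiation-associated gene, fell by 0.36 (SE 0.065, adjusted p 0.0418), a call also lost on leaving out control replicate 4, control replicate 5 or transgene replicate 3 (adjusted p up to 0.174 over all libraries left out). Without control replicate 4, control replicate 5 and transgene replicate 3, 9, 9 and 22 of all tested genes were called lower. Cnfn (-0.26), Cst6 (-0.23) and Serpinb12 (-0.31) were called by the group-only fit alone. The protease gene Klk7 differed by 0.36 (SE 0.20, adjusted p 0.312). Of 30 factors known to act on the complex, 1 fell in the stratum-term fit, and the median was -0.021. That gene was Cebpb, a C/EBP factor of differentiating keratinocytes, at 9.93, 9.93, 9.91 and 9.73 in transgene replicates 1 to 4 against 10.17 to 10.40 in controls (-0.41, SE 0.072, adjusted p 0.0418), and its call was lost without the same 6 libraries as that of Krtdap (adjusted p up to 0.174). Cebpa (-0.19, adjusted p 0.0904) was called by the group-only fit alone. Junb (-0.20) and Ahr (0.18), which with these 2 had the largest differences of the list, were called by neither fit. Without replicate 1 of either group, limma called 4 regulators higher and 1 lower, and 3 genes of the cornification list lower. Of all tested genes, 952 were then lower and 889 higher without control replicate 1, and 948 and 887 without transgene replicate 1.

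Hard keratin genes, which mark filiform papillae, were lower by more than any subfamily of the complex. Of 13 tested, 7 fell in the stratum-term fit, and the median was -0.95. Of all tested genes, 1.15% were called lower and 0.511% higher in that fit, and 12.7% and 11.7% in the group-only fit. At an unadjusted p under 0.05 in the stratum-term fit, 11.8% were lower and 11.2% higher. In limma the count was 0 when any 1 of control replicates 2 to 5 or transgene replicates 2 and 3 was left out. Those runs called only 0 to 22 of all tested genes lower, against 166 with all libraries. The hard keratin count was 10 when replicate 1 of either group was dropped. All tested genes called lower then numbered 952 (control dropped) and 948 (transgene dropped). With transgene replicate 4 dropped it was 12 hard keratin genes, among 177 of all tested genes. All 13 hard keratin genes were lower at an unadjusted p under 0.05 and in the group-only fit. Their summed level on the log2 scale was 13.89 to 14.67 in transgene libraries and 14.82 to 15.12 in controls, with Krt40 listed at 0. For 17 suprabasal oral keratinocyte genes the median was -0.0098, with 0 called in the stratum-term fit of limma (1 lower at an unadjusted p under 0.05, and 1 lower in the group-only fit). Their summed level was 19.84 to 20.28 in transgene libraries and 19.89 to 20.32 in controls, and none was at 0. For 14 basal keratinocyte genes the median was 0.06, with 0 called by limma (1 lower and 2 higher at an unadjusted p under 0.05, and the same numbers in the group-only fit). Skeletal muscle genes, which make up the body of the tongue, had a median of -0.085 over 10 genes, with 0 called in the stratum-term fit. At an unadjusted p under 0.05 in that fit of limma, 2 were lower and 1 higher. The group-only fit called 2 lower and 2 higher. Muscle genes summed to 20.18 to 20.30 in transgene libraries and 20.11 to 20.29 in controls. The defining keratins and muscle genes of the tongue were thus present in every library. Medians over fibroblast (0.22) and endothelial genes (0.20) were on the higher side, with 0 called in the stratum-term fit of limma (6 and 5 higher at an unadjusted p under 0.05, and 5 and 5 in the group-only fit). Of all tested genes, 11.2% were higher at that unadjusted level and 11.7% in the group-only fit. Without replicate 1 of either group, limma called 1 suprabasal, 4 basal, 3 fibroblast and 4 endothelial genes higher, and 2 muscle genes lower and 1 higher. Of all tested genes, 889 were then higher without control replicate 1 and 887 without transgene replicate 1. Fibroblast genes summed to 16.71 to 17.02 in transgene libraries and 16.33 to 16.72 in controls, and endothelial genes to 14.16 to 14.42 and 13.88 to 14.19, with none at 0. Of 8 immune genes, 1 rose in the stratum-term fit and 3 in the group-only fit, with a median of 0.041. That gene was Csf1r, the receptor of macrophage colony-stimulating factor, at 10.66, 10.66, 10.63 and 10.71 in transgene replicates 1 to 4 against 10.33 to 10.46 in controls (0.27, SE 0.048, adjusted p 0.0418). Its call was lost when any of the same 6 libraries was left out (adjusted p up to 0.174). In those runs 0 to 9 of all tested genes were called higher, against 74 with all libraries. Immune genes summed to 12.80 to 12.95 in transgene libraries and 12.73 to 13.00 in controls, with none at 0. Salivary and adipocyte genes had medians of 0.053 and 0.052 over 7 and 6 genes, with 0 called by limma in either fit (0 at an unadjusted p under 0.05 in the stratum-term fit). The part of these tissues in the member results was not tested.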

How the data were processed

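Stranded mRNA libraries of mouse tongue tissue were read from 1 end at 50 bases, per the labels' protocols. Normalized expression on a log2 scale was deposited for 20512 gene symbols, made by the authors with TopHat2, HTSeq and DESeq2 on build mm9, per the submitters' processing notes; versions and settings are not given in the sources used here. No read counts were used, so the depth per library is unknown. A second deposited table of the authors' comparison holds, per the file headers, a mean normalized signal, a log2 fold change with its SE, the linear fold ratio, a score named stat and raw and adjusted p-values. The authors' group ratios and scores in the first table were not used.

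Genes at exactly 0 in every library (3064) and 1 row without a name were left out, and 14490 genes with a mean of at least 3 were tested. Limma 3.58.1 in R 4.3.3 was fitted to the log2 values with group and stratum terms and a prior variance that follows the mean level; its two-sided p-values were adjusted by Benjamini and Hochberg's method over all tested genes. Strata were found by a search over partitions: of 3003 partitions into 3 sets, 1 left no difference between sets in any gene once group means were allowed for, and of 7634 into 4 sets 0 did. Estimates equal the difference of group means. The fit was tested on simulated data. Alternatives were the group-only fit, no intensity trend, other floors, other scaling, the length trend taken out (loess on longest GENCODE M21 transcript, 99.7% of tested genes matched), single strata and each library left out; the last was also run, chosen after seeing the data, for list genes and within-library differences.

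The members, lists and tests were chosen with earlier results of these data known. Every member is named. Values by library are given for members called in either fit and for the member of each subfamily with the highest level or largest difference; Sprr1a, Lce1m, Lce3d, Csf1r, Krt84, Mal and the genes given for transgene replicate 3, outside that rule, were singled out after their values were seen. Of the cornification and regulator lists, genes called in either fit and up to 4 with the largest differences are named. Replicate numbers follow accession order and pair no libraries. Gene order and upstream windows come from GENCODE M21 and RefSeq on GRCm38, not the authors' build.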

Additional observations from a re-analysis of the deposited data

Results flagged for a closer look

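Each of the 37 tested members was looked at in both groups, 74 sets of libraries in all, for 1 library far from the rest of its group. In 4 of them the gap to the nearest library, as a share of the range of the group, passed Dixon's 95% critical value. Chance alone passes about 1 in 20 sets of independent values. The deposited values hold no variation between strata, so libraries are not independent and that rate need not hold here. Members also vary together, so the 4 are not separate signs. Transgene replicate 4 was the high library for Sprr1b (11.95, share 0.887), Lce1a1 (11.85, share 0.852) and Crnn (13.10, share 0.832). Transgene replicate 3 was the low library for Ivl (5.99, share 0.891). No control set passed the critical value, and the same limit holds there.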

How the results depend on the processing

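The count of members called lower, 2 in the stratum-term fit, was 23 in the group-only fit, 1 with no intensity trend (Sprr2b), with no floor on low values (Sprr2b), with quantile normalization (Sprr2b) or in stratum 2 alone (Prr9), and 0 with the length trend taken out. Leaving out 1 library gave 0 to 15. The count was 0 without control replicate 2, 3, 4 or 5 and also without transgene replicate 2. It was 1 (Sprr2b) when transgene replicate 3 was left out, and 15 when transgene replicate 4 was. Replicate 4 was the transgene library nearest to the controls by its median over all members, though not in every subfamily. No alternative run called a member higher. The median over members was -0.14 with the length trend taken out, and the SPRR and LCE medians were then -0.074 and -0.20; the SPRR median was -0.064 with no floor, which adds low genes with differences near 0, and the S100-fused median was -0.36 in stratum 1 alone. Leaving out 1 library moved the medians over members from -0.31 to -0.22, over SPRR from -0.26 to -0.21, over LCE from -0.43 to -0.30, and over S100-fused genes from -0.14 to 0.081.

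Over all tested genes, 166 were lower and 74 higher. The counts were 1847 and 1690 in the group-only fit, 41 and 28 with quantile normalization, 7 and 0 with the length trend taken out, and 400 and 333 in stratum 2 alone, and 37 were higher with no floor. Leaving out 1 library gave 0 to 952 lower and 0 to 889 higher, with the highest counts without control replicate 1 or transgene replicate 1, when stratum 1 no longer bears on the difference. Without control replicates 2 to 5 in turn, 1, 0, 9 and 9 genes were lower, and without transgene replicates 2 and 3, 0 and 22. Several members that passed no test changed sign. With the length trend taken out, Sprr3 was at 0.041, Lce3a at 0.010, Lce3e at 0.012, Kprp at 0.025 and Hrnr at -0.038. With quantile normalization Rptn was at 0.053, Tchh at 0.027 and Kprp at 0.057, and with libraries centred on their median Kprp was at 0.00075. In stratum 2 alone Rptn was at 0.17, Sprr3 at 0.059, Tchh at 0.058 and Kprp at 0.14. With 1 library left out the range was -0.14 to 0.17 for Rptn, -0.21 to 0.059 for Sprr3, -0.21 to 0.058 for Tchh, -0.11 to 0.14 for Kprp, -0.037 to 0.28 for Hrnr, -0.035 to 0.098 for Tchhl1, -0.076 to 0.29 for Sprr1a, -0.0055 to 0.15 for Sprr2f and -0.095 to 0.13 for Lce1m. The cause of these moves was not tested. No paired analysis was possible because the labels carry no replicate numbers that pair libraries. With no counts, what depth limits could not be measured, and differences of low members may be understated.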
